A study of Saccharomyces cerevisiae with 4 samples.

Results

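The vacuolar proteases of budding yeast (Saccharomyces cerevisiae), their cytosolic inhibitors and the autophagy gene ATG8 were followed in polyadenylated RNA of a wild-type strain and of a strain with the ulp1-I615N allele of ULP1. The genes were taken by name, with earlier results of these data known: 8 of the 7126 features in the table of counts, namely the protease genes PEP4, PRB1, PRC1, LAP4 and YBR139W, the inhibitor genes PBI2 and PAI3, and ATG8. LAP4 is also called APE1 and YBR139W is also called ATG42. All 8 were among the 6139 genes that passed the filter on low counts.

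ULP1 encodes the protease that matures the protein modifier SUMO and removes it from its targets. The wild type (strain MH1006) and the mutant (strain MH1018) were both of mating type a, both carried the alleles leu2-3,112, ura3-52 and trp1-289, deletions of ADE2 and ADE3, and lys1 disrupted by kanMX4, and both were harvested in mid-log growth in the rich glucose medium YPD at 30°C. Each group held 2 libraries, and each genotype is 1 named strain, so the allele cannot be told apart from other differences between the strains, among them the raised share of counts from chromosome X (5.58% in both wild-type libraries, 9.13% and 9.16% in the mutant libraries). None of the 8 genes lies on chromosome X. Nothing in the labels ties the replicates to separate cultures, and p-values then cover only the spread among these 4 libraries, which may be technical. The libraries held 13244131 to 26723470 counted fragments. Of the labelled markers, LYS1 had 4 or 5 counts in each library, whereas ADE2 (3116 to 7104 counts) and ADE3 (1368 to 3250 counts) were counted in every library although the genotypes list them as deleted. The 5 genes that mark a cells summed to 1155 and 1200 CPM (fragment counts made comparable between libraries by TMM scaling) in wild type and to 1111 and 1170 CPM in the mutant. Among them STE2 was called lower (log2 fold change -0.18, edgeR adjusted p = 0.0303) and the other 4 were not called. The 4 genes that mark alpha cells summed to 39.9 CPM in both wild-type libraries and to 65.1 and 69.4 CPM in the mutant, most of it from SAG1, which lies on chromosome X. STE3, on chromosome XI, was higher too (log2 fold change 0.59, edgeR adjusted p = 0.0332). MF(ALPHA)1 (0.99) and MF(ALPHA)2 (0.29), also on other chromosomes, were not called.

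The vacuole is the digestive compartment of the yeast cell. Its proteases are made as inactive precursors, travel there through the secretory pathway or, for the LAP4 product, directly from the cytoplasm, and are activated in a cascade that starts with proteinase A, the product of PEP4. Small inhibitor proteins in the cytosol bind particular proteases, and autophagosomes, whose membranes carry the ubiquitin-like protein Atg8, bring cytoplasm to the vacuole for breakdown. Starvation, entry into stationary phase and stress are known to raise many transcripts of this system above their level in growing cells on glucose. They do so in part through the activators Msn2 and Msn4, which bind the stress response element (STRE).

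The sequence upstream of the 8 genes is shown first because the genes are compared with each other below. The STRE was searched as AGGGG on both strands, from 250 bases before to 50 bases after the start of each gene (its start codon), in the reference genome R64 of RefSeq, which is sacCer3. It was present in 7 of the 8 windows, against 21.6% of the 6001 windows of nuclear protein-coding genes. The exception was PEP4, whose nearest match starts 353 bases before the gene. In a window of 500 bases before the start, chosen after seeing this, all 8 genes and 34.1% of the 6000 windows had a match. Matches came as pairs in PRC1 (194 and 163 bases before the start), LAP4 (240 and 144), YBR139W (86 and 79) and ATG8 (91 and 68). PRB1 had 1 match at 114 bases, PBI2 1 at 161 bases and PAI3 1 at 129 bases, with further ones at 267 and 286 bases before PAI3. A match is a description of these letters and does not show that a factor binds there. The windows of 5 genes follow with the more distant window of PEP4, from 400 to 101 bases before its start, because they hold the paired matches, an inhibitor gene and the exception. Each is written 5′ to 3′ on the strand of its gene, and capitals mark the STRE (AGGGG or CCCCT) and the element URS1 (searched as GGCGGC on both strands), at which the repressor Ume6 binds. The sequences are from chrII:80682-80981 (minus strand) for ATG8, chrXI:247633-247932 (minus) for LAP4, chrII:515414-515713 (plus) for YBR139W, chrXIII:861672-861971 (plus) for PRC1, chrXIV:605134-605433 (plus) for PBI2 and chrXVI:261032-261331 (minus) for PEP4.
ATG8: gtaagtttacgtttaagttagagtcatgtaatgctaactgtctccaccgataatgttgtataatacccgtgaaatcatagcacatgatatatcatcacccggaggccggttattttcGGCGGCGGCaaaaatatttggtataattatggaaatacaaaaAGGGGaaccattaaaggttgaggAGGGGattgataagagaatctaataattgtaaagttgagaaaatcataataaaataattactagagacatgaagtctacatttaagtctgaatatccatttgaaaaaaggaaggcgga
LAP4: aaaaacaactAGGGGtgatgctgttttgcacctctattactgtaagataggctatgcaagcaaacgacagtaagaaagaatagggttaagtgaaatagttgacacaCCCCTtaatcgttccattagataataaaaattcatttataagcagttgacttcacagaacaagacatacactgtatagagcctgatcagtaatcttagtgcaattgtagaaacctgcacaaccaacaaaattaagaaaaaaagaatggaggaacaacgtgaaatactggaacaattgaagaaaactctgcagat
YBR139W: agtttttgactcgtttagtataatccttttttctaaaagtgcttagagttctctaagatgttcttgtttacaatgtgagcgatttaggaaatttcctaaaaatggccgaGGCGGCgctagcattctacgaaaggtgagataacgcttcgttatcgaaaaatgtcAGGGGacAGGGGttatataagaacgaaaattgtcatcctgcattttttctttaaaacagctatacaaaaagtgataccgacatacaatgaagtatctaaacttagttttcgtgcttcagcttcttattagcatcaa
PRC1: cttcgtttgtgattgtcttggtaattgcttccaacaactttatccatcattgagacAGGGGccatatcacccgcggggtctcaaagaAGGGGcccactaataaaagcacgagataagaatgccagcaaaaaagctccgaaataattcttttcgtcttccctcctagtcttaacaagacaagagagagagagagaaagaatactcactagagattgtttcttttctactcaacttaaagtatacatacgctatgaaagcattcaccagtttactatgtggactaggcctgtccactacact
PBI2: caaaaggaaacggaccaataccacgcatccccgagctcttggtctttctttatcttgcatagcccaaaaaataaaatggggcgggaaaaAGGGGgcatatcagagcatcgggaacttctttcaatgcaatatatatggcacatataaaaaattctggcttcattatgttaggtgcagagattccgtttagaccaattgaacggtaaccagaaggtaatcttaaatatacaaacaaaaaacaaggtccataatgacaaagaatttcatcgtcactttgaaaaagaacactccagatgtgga
PEP4: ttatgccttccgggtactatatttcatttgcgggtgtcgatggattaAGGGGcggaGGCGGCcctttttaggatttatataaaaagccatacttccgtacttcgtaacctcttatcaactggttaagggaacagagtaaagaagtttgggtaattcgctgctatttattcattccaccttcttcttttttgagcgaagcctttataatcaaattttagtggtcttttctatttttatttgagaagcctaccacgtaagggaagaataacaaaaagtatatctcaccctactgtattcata

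URS1 was less frequent, in 5.1% of the windows from 250 bases before to 50 bases after the start, and 2 of the 8 genes had it there. ATG8, a known target of Ume6, held GGCGGC at 133 and 130 bases before its start, as overlapping copies of the run GGCGGCGGC. YBR139W held 1 copy at 141 bases. In PEP4 the copy lay 344 bases before the start, beside its STRE match. The letters GATAA, which GATA activators of nitrogen metabolism recognise, were found in 7 of the 8 windows and in 61.5% of all windows, and TGACTC, recognised by the amino acid regulator Gcn4, in 2 of the 8 (YBR139W and ATG8) and in 8.0% of all. Over all genes tested with a window, 42.2% of the 1255 with an STRE match were called higher in the mutant (median log2 fold change 0.16), against 23.4% of the 4518 without one (median -0.02). With URS1 in the window it was 35.2% of 293 genes, and without it 27.1% of 5480. For GATAA the shares were 27.0% of 3545 genes with a match and 28.2% of 2228 without, and for TGACTC 27.0% of 471 and 27.5% of 5302.

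**Figure D1:**
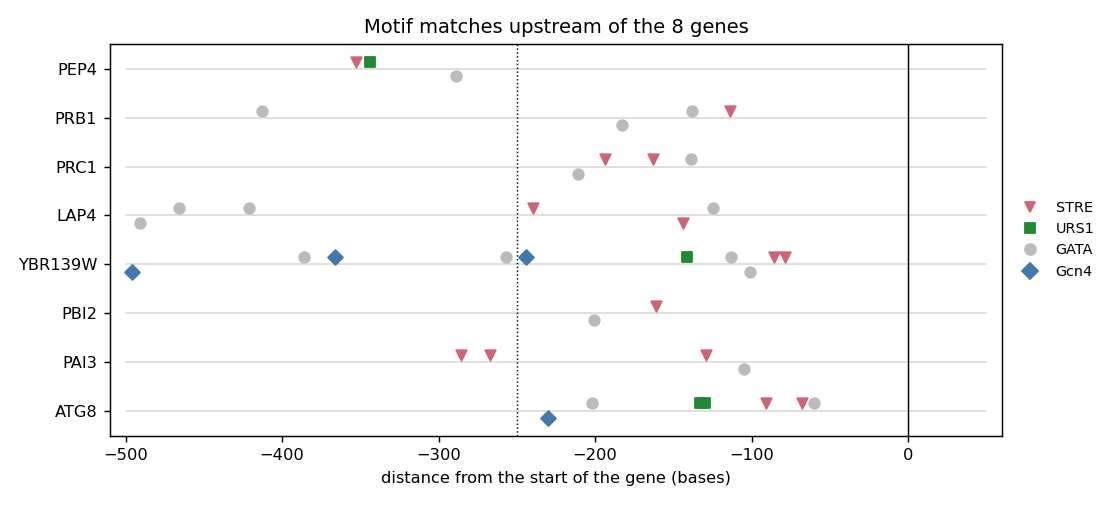
Matches of 4 motifs upstream of the 8 genes, by distance in bases from the start of the gene (solid line), with marks above each line for the strand of the gene and below it for the other strand. The dotted line is 250 bases before the start. PEP4 is the gene whose STRE mark lies beyond the dotted line with none inside it.

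The comparison of the strains asks which transcripts differ when the SUMO protease is mutated. All 8 genes were higher in the mutant, by 1.48-fold to 3.21-fold, with a median log2 fold change of 1.04, against a median of 0.01 over all 6139 genes tested (edgeR quasi-likelihood test, p-values adjusted by Benjamini and Hochberg over all of them, threshold 0.05). Of all genes tested, 50.8% were called in either direction and 26.4% were called higher. For each of the 8 both mutant libraries lay above both wild-type libraries, and the groups did not overlap for 74.1% of all genes. PEP4, LAP4, PAI3 and ATG8 were at least 2-fold higher, which held for 5.20% of all genes. Since RNA came from whole cultures, more cells that express a gene and more RNA per cell cannot be told apart. Together the 8 genes took 863 and 893 CPM in the wild-type libraries and 1574 and 1585 CPM in the mutant libraries.

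The protease gene at the head of the cascade was higher in both mutant libraries. PEP4 (YPL154C, chromosome XVI, 259714 to 260931 of sacCer3), the gene of the aspartyl protease that activates the other vacuolar zymogens, was counted 3183 and 3954 times in wild type and 6650 and 12918 times in the mutant. This came to 212 and 218 CPM in wild type, against 475 and 467 CPM in the mutant. The libraries of a group lay within 0.04 of each other on the log2 scale and the groups stood far apart. PEP4 rose 2.19-fold, from 215 ± 4.16 to 471 ± 5.91 CPM (SD, n = 2 per group; a log2 change of 1.13, SE 0.06, edgeR adjusted p = 1.11e-09).

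PRB1 (YEL060C, chromosome V, 40046 to 41953), the gene of the subtilisin-like proteinase B, which Pep4 activates, had 125 and 122 CPM in wild type, against 210 and 217 CPM in the mutant. Its rise was 1.73-fold, from 1879 and 2215 counts to 2939 and 6003 (a log2 change of 0.79, SE 0.06, edgeR adjusted p = 3.25e-08). PRC1 (YMR297W, chromosome XIII, 861922 to 863520), the gene of carboxypeptidase Y, had the highest counts of the set, 5611 and 7354 in wild type, against 7966 and 16094 in the mutant. It had the smallest fold of the 8, 1.48, from 374 and 405 CPM to 569 and 581 CPM (a log2 change of 0.56, SE 0.07, edgeR adjusted p = 6.49e-06). The wild-type libraries of PRC1 differed by 0.12 on the log2 scale, and still neither of them came near a mutant library.

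YBR139W (chromosome II, 515664 to 517190) encodes a vacuolar serine carboxypeptidase related to carboxypeptidase Y. It was at 60.3 and 57.3 CPM in wild type, against 102 and 108 CPM in the mutant, a rise of 1.79-fold (a log2 change of 0.84, SE 0.07, edgeR adjusted p = 8.07e-08). LAP4 (YKL103C, chromosome XI, 246138 to 247682) encodes aminopeptidase I, the main cargo of the cytoplasm-to-vacuole pathway. It was counted 772 and 879 times in wild type and 1859 and 3335 times in the mutant, or 51.4 and 48.4 CPM against 133 and 120 CPM. LAP4 had the largest rise among the proteases, 2.53-fold (a log2 change of 1.34, SE 0.07, edgeR adjusted p = 8.69e-10), and it ranked 178th of 6139 genes by fold.

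Both inhibitor genes were higher too. PBI2 (YNL015W, chromosome XIV, 605384 to 605611), whose product inhibits proteinase B and also takes part in vacuole fusion, had 463 and 610 counts in wild type, against 804 and 1857 counts in the mutant. It went from 30.8 and 33.6 CPM to 57.4 and 67.1 CPM, a rise of 1.94-fold (a log2 change of 0.96, SE 0.09, edgeR adjusted p = 4.91e-07). PAI3 (YMR174C, chromosome XIII, 610159 to 610365), whose product inhibits proteinase A, was the gene with the fewest counts, 34 and 52 in wild type, against 73 and 171 in the mutant. It stood at 2.26 and 2.86 CPM in wild type, against 5.21 and 6.18 CPM in the mutant, 2.23-fold higher (a log2 change of 1.16, SE 0.25, edgeR adjusted p = 0.000964). Its standard error was the widest of the set, and without mutant replicate 2 its adjusted p was 0.0147.

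ATG8 (YBL078C, chromosome II, 80378 to 80731) had the largest rise of the 8. Its product is conjugated to a lipid of the autophagosome membrane. It was counted 109 and 102 times in wild type and 316 and 522 times in the mutant, or 7.26 and 5.62 CPM against 22.6 and 18.9 CPM. The lower mutant library was thus well above the higher wild-type library, although replicates differed by 0.37 (wild type) and 0.26 (mutant) on the log2 scale, the widest gap within a group being that of wild-type ATG8. The rise was 3.21-fold (a log2 change of 1.68, SE 0.16, edgeR adjusted p = 3.97e-07), which placed ATG8 103rd of 6139 genes by fold.

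**Figure D2:**
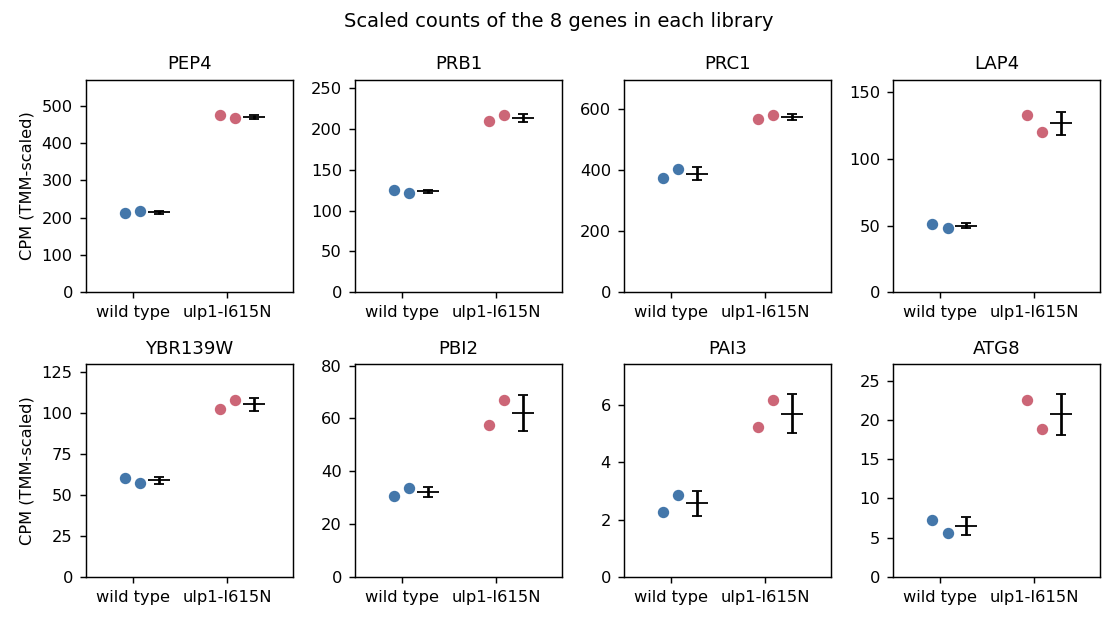
Scaled counts (CPM, linear axes from 0) of the 8 genes in the 2 wild-type and 2 ulp1-I615N libraries. Points are libraries and the black bars are the group mean ± SD (n = 2). In each panel both mutant points lie above both wild-type points, for PEP4 at 475 and 467 CPM against 212 and 218 CPM.

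Levels of different genes were compared as CPM per kilobase of gene, with no correction for fragments that reach past the ends of short genes. PAI3 is 207 bases long and PBI2 228, against 1218 for PEP4 and 1908 for PRB1. How far length affects the order was not tested. In wild type the order was PRC1 (243 ± 13.9 CPM per kilobase, SD, n = 2), PEP4 (176 ± 3.42), PBI2 (141 ± 8.61), PRB1 (64.8 ± 1.15), YBR139W (38.5 ± 1.38), LAP4 (32.3 ± 1.36), ATG8 (18.2 ± 3.27) and PAI3 (12.4 ± 2.05). No neighbours in this order overlapped between their libraries. ATG8 (15.9 and 20.5) and PAI3 (10.9 and 13.8) had the lowest levels. PRC1 ranked 670th and PAI3 5121st of all genes tested by this level. In the mutant PEP4 (386 ± 4.85) stood above PRC1 (360 ± 5.47), followed by PBI2 (273 ± 29.9), PRB1 (112 ± 2.56), LAP4 (81.9 ± 5.63), YBR139W (68.7 ± 2.58), ATG8 (58.5 ± 7.42) and PAI3 (27.5 ± 3.29). The places of PEP4 and PRC1, and of LAP4 and YBR139W, were thus exchanged.

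Ratios of these levels within a library do not depend on the scaling between libraries. With 2 against 2 libraries the smallest two-sided p of an exact permutation test is 0.333, so no ratio could pass a threshold of 0.05 in that test. PBI2 was 2.06 and 2.30 times as abundant per length as PRB1, the protease gene whose product it inhibits, in wild type and 2.29 and 2.59 times in the mutant. These values overlapped between the groups (exact permutation p = 0.667). Without division by length PBI2 stood below PRB1 in wild type (means of 32.2 and 124 CPM). That PBI2 is the higher of the pair thus rests on the lengths. The ratio of PAI3 to PEP4 was 0.0629 and 0.0774 in wild type, against 0.0646 and 0.0779 in the mutant, which also overlapped (exact permutation p = 0.667). No other test of these ratios was run. The groups did not overlap for the ratio of YBR139W to PRC1 (0.169 and 0.148 against 0.188 and 0.194), of PEP4 to PRC1 (0.745 and 0.706 against 1.10 and 1.05) or of LAP4 to YBR139W (0.842 and 0.835 against 1.28 and 1.10), each at the exact permutation minimum of p = 0.333. The last pair of ratios was chosen after the order of levels was seen.

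**Figure D3:**
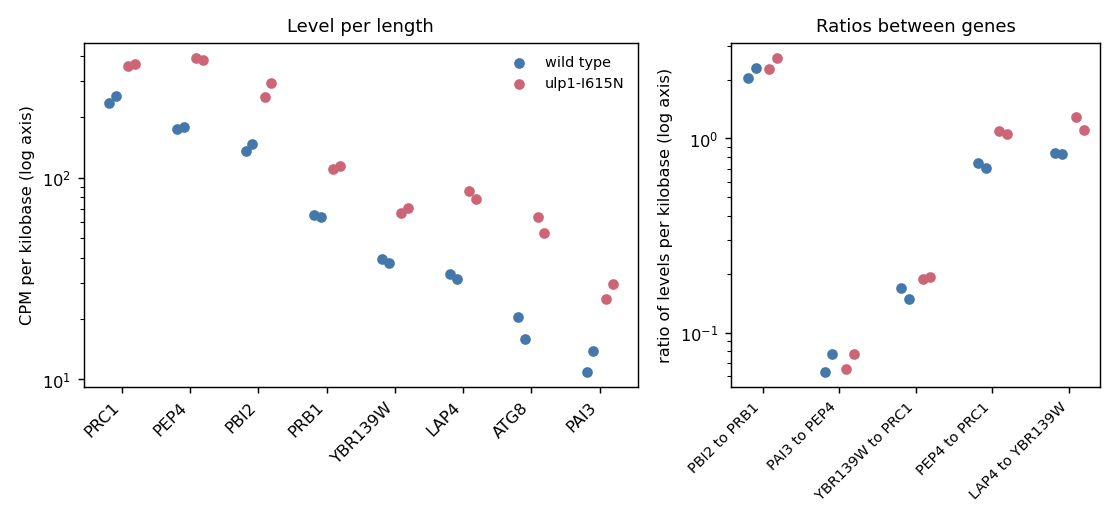
Left, level of each gene in CPM per kilobase (log axis), ordered by the wild-type mean, with 1 point per library. Right, ratio of levels per kilobase between pairs of genes (log axis). The ratio of PBI2 to PRB1 overlaps between the groups, whereas that of PEP4 to PRC1 is 0.745 and 0.706 in wild type, against 1.10 and 1.05 in the mutant.

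The features next to the 8 genes on their chromosomes did not share one direction. Of the 16 nearest features 15 were tested, 5 of which were higher, 4 lower and 6 not called, and their median log2 change was 0.11. Over all genes tested, 26.4% were called higher and 24.3% lower. The largest was SIP18 (log2 fold change 2.92), a hydrophilin gene 650 bases from PAI3, and the feature YKL102C, 379 bases from LAP4, was at 1.53. PEP4 lay between KIP2 (log2 fold change -0.0027) and RAD53 (-0.10), neither of which was called. None of the 8 genes overlapped another feature, and the medians of the 6 chromosomes that carry them ran from -0.06 to 0.01.

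Other enzymes of the vacuole were mostly higher. Of 11 further hydrolase genes 8 were higher, 0 lower and 3 not called, and the median log2 change was 0.39. That is 72.7% called higher, against 26.4% of all genes tested. RNY1, a vacuolar ribonuclease gene, rose from 14.7 ± 0.13 to 34.4 ± 1.60 CPM (SD, n = 2 per group; a log2 change of 1.23). The alpha-mannosidase gene AMS1 rose by 1.04 on the log2 scale and the acid trehalase gene ATH1 by 0.92. The carboxypeptidase S gene CPS1 rose by 0.83, but it lies on chromosome X, where the median of all tested genes was 0.73. Not called were the aminopeptidase Y gene APE3 (0.02), the alkaline phosphatase gene PHO8 (-0.02) and PFF1 (-0.09), a gene of a vacuolar membrane metallopeptidase. TFS1, the gene of the inhibitor of carboxypeptidase Y, rose from 19.5 ± 2.70 to 59.2 ± 1.35 CPM (SD, n = 2 per group; a log2 change of 1.61, SE 0.10, edgeR adjusted p = 3.65e-09). PBN1, which is needed in the endoplasmic reticulum for the processing of proteinase B, rose by 0.28, so both genes of that list were higher.

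The genes that act with ATG8 and LAP4 differed in size of change. Their counts stand beside 26.4% of all genes tested called higher, or 22.3% of those not on chromosome X. All 5 genes of the cytoplasm-to-vacuole list were higher (median 1.04): the cargo receptor gene ATG34 by 1.65, ATG19, the receptor gene for the LAP4 product, by 1.08 from 30.3 ± 0.26 to 63.9 ± 2.70 CPM (SD, n = 2 each), AMS1 by 1.04, the adaptor gene ATG11 by 0.35 and the aminopeptidase gene APE4 by 0.31. ATG34 overlaps another feature, and AMS1 is counted both in this list and among the 11 further hydrolase genes. The genes that conjugate or cleave Atg8 were split, with 3 of the 6 tested higher, 0 lower and 3 not called (median 0.15), and ATG16 did not pass the filter on low counts. The activating enzyme gene ATG7 rose by 0.82 and the conjugating enzyme gene ATG3 by 0.42. ATG4, whose protease trims Atg8, was just called (log2 fold change 0.27, edgeR adjusted p = 0.0478). With all 4 libraries it lost the call under several alternatives, among them DESeq2 (adjusted p = 0.168) and limma-voom (adjusted p = 0.0543). It also lost the call without any 1 of the 4 libraries (log2 fold change 0.23 to 0.31). ATG5 (-0.13), ATG10 (-0.04) and ATG12 (0.02) were not called. In the list of other autophagy genes 18 of 25 were higher, 0 lower and 7 not called, with a median of 0.40. ATG39, a receptor gene for the breakdown of the nucleus and its surrounding membrane, rose from 2.37 ± 0.23 to 8.19 ± 1.28 CPM (log2 fold change 1.81), SNX4 and ATG36, both on chromosome X, by 1.09 and 1.08, and the initiating kinase gene ATG1 by 1.00. Without the 3 genes on chromosome X the count of that list was 15 of 22.

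Genes that sort proteins to the vacuole or acidify it did not rise as a group. Of the 20 sorting and fusion genes tested, 3 were higher and 2 lower, 15 were not called, and the median was 0.06. The share called higher was 15%, against 26.4% of all genes tested. PEP8 (0.83) and VPS35 (0.73), of the retromer coat, lie on chromosome X, and the third was the syntaxin gene PEP12 (0.41). The lower ones were VAM3 (-0.26) and VPS10 (-0.20), the gene of the sorting receptor for carboxypeptidase Y. Without chromosome X genes 1 was higher and 2 were lower. Of 19 genes of the vacuolar proton pump and its assembly, 0 were higher, 7 lower and 12 not called, with a median of -0.14, and 24.3% of all genes tested were called lower. The largest falls were those of the membrane subunit genes VMA3 (-0.28), VMA16 (-0.28) and VMA11 (-0.25). These falls were small. With library totals as the only scaling, which moved the median of all genes from 0.01 to 0.14, 1 pump gene was higher and 0 were lower. Of the sorting genes 9 were then higher and 0 lower. That scaling called 2217 of all 6139 genes tested higher and 866 lower. Without mutant replicate 1 the pump genes called lower were 3 and the sorting genes called lower were 0, and without mutant replicate 2 the latter were 1.

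Regulators known to act on autophagy or stress transcription were mixed: 4 of 11 genes were higher, 1 was lower, and 6 did not pass (median 0.15). That is 36.4% called higher, against 26.4% of all genes tested, of which 24.3% were called lower. MSN4, the gene of an STRE-binding activator, rose from 37.1 ± 1.71 to 101 ± 0.96 CPM (SD, n = 2 per group; a log2 change of 1.45, SE 0.07, edgeR adjusted p = 4.66e-10). Its partner MSN2 rose by 0.24, the activator gene GIS1 by 0.46 and the kinase gene TOR1, on chromosome X, by 0.47. SIN3 (-0.19), a corepressor gene, was the lower one, and was not called without mutant replicate 1 or mutant replicate 2. UME6, the gene of the repressor of ATG8, was at 0.17 (edgeR adjusted p = 0.0706), and RPH1, which represses several autophagy genes, at -0.15 (adjusted p = 0.0946), so neither was called. UME6 passed with library totals only (0.31, adjusted p = 0.00478), with TMM factors without chromosome X (0.20, adjusted p = 0.0365), with the replicate number as a block (0.17, adjusted p = 0.0417) and without wild type replicate 2 (0.22, adjusted p = 0.0431).

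**Figure D4:**
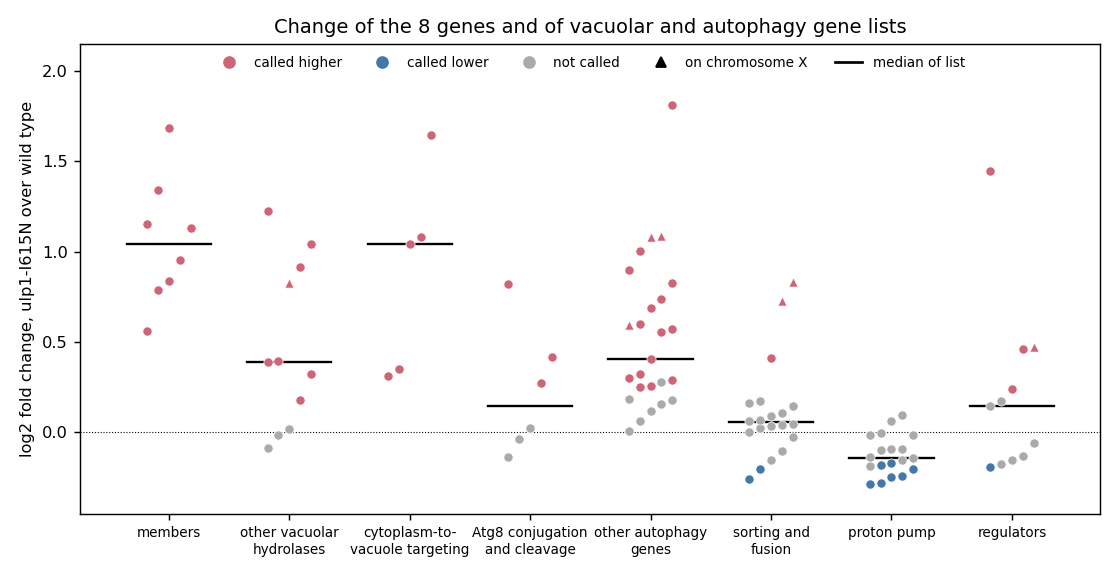
Log2 fold change of the mutant over wild type for the 8 genes and 7 lists of vacuolar and autophagy genes, 1 mark per tested gene, coloured by the call and drawn as a triangle on chromosome X. Black lines are medians, 1.04 for the 8 genes and -0.14 for the proton pump genes, which hold no gene called higher.

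The genes most like 3 of the members over the 4 libraries were found by the Euclidean distance between their log2 CPM, each taken relative to the gene's own mean, among genes that averaged at least 50 counts per library. For PBI2 they were OM14 (distance 0.07), ARP10 (0.08) and CIS3 (0.09). PEP4 was nearest to TPO4 (0.05), YPL088W (0.05) and CHS6 (0.06). Among the nearest to ATG8 were the receptor gene ATG34 (0.11) and TPO2 (0.12). CIS3 and CHS6 lie on chromosome X. With 4 libraries in 2 groups this measure mainly selects genes with the same fold.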

How the data were processed

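Polyadenylated RNA of 2 wild-type and 2 mutant libraries was sequenced after a directional library preparation, per the labels' protocols. The authors deposited raw fragment counts per gene, made per the file headers with featureCounts 2.0.0 on read pairs without the strand, multi-mapping or overlap options, so reads from the opposite strand of a gene were counted with it. The submitters' processing notes list sacCer3 as the build and, as tools, Subread 2.0.0 and HISAT2 2.1.0. No source used here gives the annotation version. The deposited table also gives the length of each feature in bases, another value used here for CPM per kilobase. All 8 genes have the same coordinates in the RefSeq annotation of R64, as do 6036 of the 6048 features that matched it.

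Genes were tested with edgeR 4.0.16 in R 4.3.3, by its quasi-likelihood F test with TMM scaling and the default filter on low counts (minimum count 10, minimum total 15), mutant against wild type, adjusted over 6139 genes. Standard errors were derived from the F statistic. This test was tried on simulated data of the same size, with 50 genes changed at each fold. It recovered 52% of those changed 1.25-fold, 82% at 1.5-fold, 96% at 2-fold and 98% at 4-fold, with 14 calls among unchanged genes. The simulation changed a far smaller share of genes than the 50.8% called here, and it shifted no whole chromosome. These rates may therefore not hold for the data. Alternatives were 3 other scalings, TMM factors without chromosome X, 2 filters, DESeq2 1.42.0, limma-voom (limma 3.58.1), edgeR's legacy option, a test for changes beyond 1.2-fold, the replicate block and each library left out. A count of 0 allows up to 0.227 CPM in the shallowest library and 0.112 in the deepest (3 counts of the total, counting error only). Replicates differed by more than sampling noise (chi-square per degree of freedom 9.20 and 8.42) and were kept apart.

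The genes and lists were chosen with earlier results of these data known. Named genes outside the 8 are, by rule, up to 3 called members of each list by size of change with a mean of 50 counts or more, and 11 genes with a known role. Further members of a list were named where its calls were few or where the genes not called were given. One gene among those nearest to ATG8 is not reported here. The planned comparison of protein sequences was not made, since no protein table was used here.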

Additional observations from a re-analysis of the deposited data

How the results depend on the processing

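All 8 genes kept their direction and their call under the 15 alternatives, 120 values in all. The legacy option of edgeR gave the same values as the main fit for these genes and for the list counts. It is therefore counted among the 15 but is not a separate check. The log2 fold change ran from 1.10 to 1.26 for PEP4, 0.76 to 0.92 for PRB1, 0.49 to 0.70 for PRC1, 1.27 to 1.47 for LAP4, 0.80 to 0.97 for YBR139W, 0.83 to 1.09 for PBI2, 0.99 to 1.35 for PAI3 and 1.498 to 1.86 for ATG8, and the highest adjusted p was 0.0147, for PAI3 without mutant replicate 2. With library totals only, 2217 genes in all were higher in place of 1622, and 866 were lower in place of 1494. The sorting genes were then 9 higher and 0 lower, the pump genes 1 and 0, and the lower regulators 0. TMM factors without chromosome X gave 5 sorting genes higher and 4 pump genes lower, with 1735 genes in all higher and 1358 lower. Against a fold of 1.2, 910 genes were higher and 637 lower, with 5 further hydrolases, 1 of the inhibitor and maturation genes, 3 cytoplasm-to-vacuole genes, 1 Atg8 conjugation gene and 11 other autophagy genes higher, and 0 sorting genes, 0 pump genes and 0 regulators lower. DESeq2 gave 2 lower regulators, and it called 6 further hydrolases and 2 Atg8 conjugation genes higher. In all it called 1307 genes higher and 1308 lower. The other autophagy genes called higher, 18 in the main fit, were 12 with DESeq2 and 23 with library totals only. List counts that changed by up to 1.5 times are not all given here. Without chromosome X members, tried after seeing the data, 1 sorting gene was higher. With 1 library left out, 0 to 3 sorting genes, 3 to 9 pump genes and 0 to 1 regulators were lower. The STRE count went from 7 to 8 in the longer window, chosen after seeing the data. With the replicate number as a block 2 regulators were lower and UME6 passed (0.17, adjusted p = 0.0417). The block changed no other count of a list by over 1.5 times, and it called 1776 genes in all higher and 1657 lower. The labels do not say what a replicate number stands for, and same-numbered libraries deviated from their group means with a correlation of 0.11 over genes. The cause of these shifts was not tested. Of 405 values of the 27 other named genes, those of the legacy option included, 379 kept direction and call, 22 lost the call, 4 gained it and 0 changed sign. PAI3 rests on 34 to 171 counts per library, which limits its precision.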
